A study of Mus musculus with 8 samples.

Results

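The transcripts encoded by mitochondrial DNA were read in the RNAseq libraries of primary mouse lung fibroblasts as the entries of the deposited count table whose symbol starts with mt-. There were 37 of them among 54532 entries: 13 protein-coding genes, 2 ribosomal RNAs and 22 transfer RNAs. The study compared fibroblasts of homozygous transgenic mice (HOMO, 4 libraries) that carry the human insulin-like growth factor-binding protein 5 gene, hIGFBP5, with fibroblasts of wild type mice (WT, 4 libraries). The transgene was placed in the mouse genome by CRISPR/Cas9 and is driven by the Ef1a1 promoter, so it is expressed in all tissues and not in fibroblasts alone. Both groups came from female mice of C57/black background, were grown in complete medium with serum after outgrowth from minced lung, and received no treatment. The number of mice behind each group of libraries is not given in the sources used here, so p-values measure the spread between libraries, which may be technical.

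Mitochondrial DNA is a small circular genome present in many copies per cell. Both of its strands are transcribed into long RNAs by the polymerase Polrmt, and the transfer RNAs, which punctuate the map, are cut out to release the messenger and ribosomal RNAs between them. The 13 proteins are all subunits of the respiratory chain or of ATP synthase and are made on mitochondrial ribosomes, whose RNAs are also encoded there while their proteins are imported from the cytosol. In fibroblasts, as in other cells, the levels of these RNAs reflect the number of genomes, their transcription and the stability of each RNA together.

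Total counts ran from 17236521 to 31987790 per library. Within each genotype some libraries stood apart or close together. WT1 differed from WT2 by a biological coefficient of variation of 7.66%, HOMO1 from HOMO2 by 4.72% and HOMO3 from HOMO4 by 5.08%, whereas all other pairs within a genotype differed by 30.2 to 56.7%, so that 4 libraries per group may hold only 3 WT and 2 HOMO independent units. The human transgene has no entry in the mouse table, and mouse Igfbp5 had a level of 409 CPM (counts scaled to library size) in WT3 against 4.34 to 9.65 in the other WT libraries and 1.07 to 2.86 in HOMO. Fibroblast markers (9 genes, among them Col1a1, Pdgfra and Dcn) summed to 12937 to 16618 CPM in WT and 14002 to 24381 CPM in HOMO, so the labelled cell type was present throughout. Of these 9, Pdgfrb (log2 difference -0.97, edgeR adjusted p = 0.0251) and Vim (-0.65, edgeR adjusted p = 0.0430) were called lower in HOMO. None was called higher, and the 22.2% called compares with 12.1% of all genes. The other 7 were not called, with Col1a1 fitted at 0.82 and Thy1 at -1.62. Macrophage markers (Ptprc, Cd68, Adgre1, Lyz2) summed to 1817 CPM in WT3 and 1046 CPM in WT4, 98.7 and 128 CPM in WT1 and WT2, and 17.7 to 128 CPM in HOMO. Epithelial markers summed to at most 7.05 CPM in any library and endothelial markers to at most 1.09 CPM. Cdh1, the only one of the epithelial markers with enough counts to be tested, was called higher in HOMO (edgeR adjusted p = 0.0462). Mesothelial markers (Msln, Upk3b, Wt1) summed to 19.4 and 21.0 CPM in WT1 and WT2, 124 and 108 CPM in WT3 and WT4, and 83.3 to 112 CPM in HOMO. Of these, Wt1 was called higher in HOMO (1.12 to 8.66 CPM against 26.8 to 40.6 CPM, edgeR adjusted p = 0.0166). Msln, fitted at -0.52, and Upk3b, fitted at 0.09, were not called. Mural markers (Cspg4, Rgs5, Myh11) summed to 7.21 to 61.6 CPM in WT and 0.998 to 19.6 CPM in HOMO, with Rgs5 called lower (edgeR adjusted p = 0.0486). Cspg4, fitted at -0.31, and Myh11, fitted at -1.29, were not called. The part of these markers in the mitochondrial values was not tested. In bulk RNA, fewer cells of a type and less RNA per cell cannot be told apart.

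Part of the mitochondrial genome is also present, nearly letter for letter, in the nuclear genome, and this bears on the counts of the genes in that part. On chromosome 1 of GRCm38 (the mm10 build), 7 annotated pseudogenes lie in a row on the minus strand between chr1:24611535-24616197, a span of 4663 bases, in the order in which mt-Co1, mt-Co2, mt-Atp6, mt-Co3, mt-Nd3, mt-Nd4l and mt-Nd4 lie on the mitochondrial map. The spacing between neighbouring copies matched that of the mitochondrial genes to the base except for a shift of 1 base between the copies of mt-Nd3 and mt-Nd4l, the interval that holds mt-Tr on the mitochondrial map. The copies of mt-Co2 (Gm28661), mt-Atp6 (Gm10925), mt-Co3 (Gm28437), mt-Nd4l (Gm10222) and the 5′ part of mt-Nd4 (Gm28439) matched over all 681, 678, 783, 294 and 876 aligned bases. The first bases of mt-Co3, the third subunit of cytochrome c oxidase, are shown beside those of its copy as an instance of a pair with no differing base over the aligned length:
mt-Co3 first 60 bases: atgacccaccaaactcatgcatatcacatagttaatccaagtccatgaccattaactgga
Gm28437 first 60 bases: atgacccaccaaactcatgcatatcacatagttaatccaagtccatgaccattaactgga
The copy of mt-Nd3, a small subunit of complex I, differed at a single base of 345 aligned bases. The substitution is T3C, counted from the first base of the gene and with the mitochondrial base first, and it lies at position 9461 of the mitochondrial reference. It is the capital letter in the following lines, which are shown because the division of counts between these 2 entries differed between libraries:
mt-Nd3 first 60 bases: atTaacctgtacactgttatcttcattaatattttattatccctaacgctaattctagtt
Gm28438 first 60 bases: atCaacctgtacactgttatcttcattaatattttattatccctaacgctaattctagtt
The copy of mt-Co1, the catalytic subunit of cytochrome c oxidase, covers only its last 492 bases and differed at 6 of them (T1056A, C1057T, A1059G, A1060G, C1062A and A1066T, counted from the first base of mt-Co1). These lie at the start of the copy and are in capitals in the stretch from position 1054 to 1113:
mt-Co1 stretch: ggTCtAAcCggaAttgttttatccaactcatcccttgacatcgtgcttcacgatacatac
Gm29216 stretch: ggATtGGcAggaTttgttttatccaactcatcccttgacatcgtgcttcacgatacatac
Sequences are those of the GENCODE M21 transcripts on GRCm38.

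In every HOMO library a larger share of the counts was mitochondrial than in any WT library. The 37 entries held 1.097%, 1.24%, 0.643% and 1.39% of library counts in WT1 to WT4, and 1.82%, 2.16%, 1.85% and 2.06% in HOMO1 to HOMO4. WT3 was the lowest and WT4 the highest of the WT libraries, and the genotypes did not overlap. These are shares of what was counted, and whether the genes with a copy on chromosome 1 were counted in full was not tested. The means were 1.09 ± 0.323% (SD, n = 4) in WT and 1.97 ± 0.165% (SD, n = 4) in HOMO, a ratio of 1.81 and a difference of 0.881 percentage points (two-sided exact permutation test, p = 0.0286, the smallest that 70 assignments allow, and 0.114 after Benjamini-Hochberg adjustment over 8 measures). With each near-identical pair averaged to a single unit the difference was 0.906 points and the exact permutation test could not go below its value of p = 0.2. The counting error was small beside these differences, with a 95% Wilson interval of 0.640 to 0.647% for WT3, the library with fewest mitochondrial counts. Intervals cover counting error alone, since reads were counted without molecular identifiers.

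The share lay almost wholly in the protein-coding transcripts. The 13 protein genes took 1.05 ± 0.317% of counts in WT and 1.91 ± 0.167% in HOMO (SD, n = 4 each), a ratio of 1.83 without overlap (exact permutation p = 0.0286, adjusted 0.114). The ribosomal RNAs, which a poly-T selection should largely leave behind, took 0.0370%, 0.0446%, 0.0362% and 0.0515% in WT1 to WT4, and 0.0365%, 0.0393%, 0.0733% and 0.0752% in HOMO1 to HOMO4 (exact permutation p = 0.314). HOMO1 and HOMO2 were inside the WT range for the ribosomal RNAs while HOMO3 and HOMO4 were above it. The 22 transfer RNAs took 0.00396% of counts in WT and 0.00565% in HOMO, a ratio of 1.43, with overlap between WT4 and HOMO1 (exact permutation p = 0.0571). The libraries richest in macrophage markers, WT3 and WT4, were the lowest and the highest of the WT group in mitochondrial share. Without both of them the difference in the share of all 37 entries was 0.806 points (exact permutation p = 0.133).

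**Figure D1:**
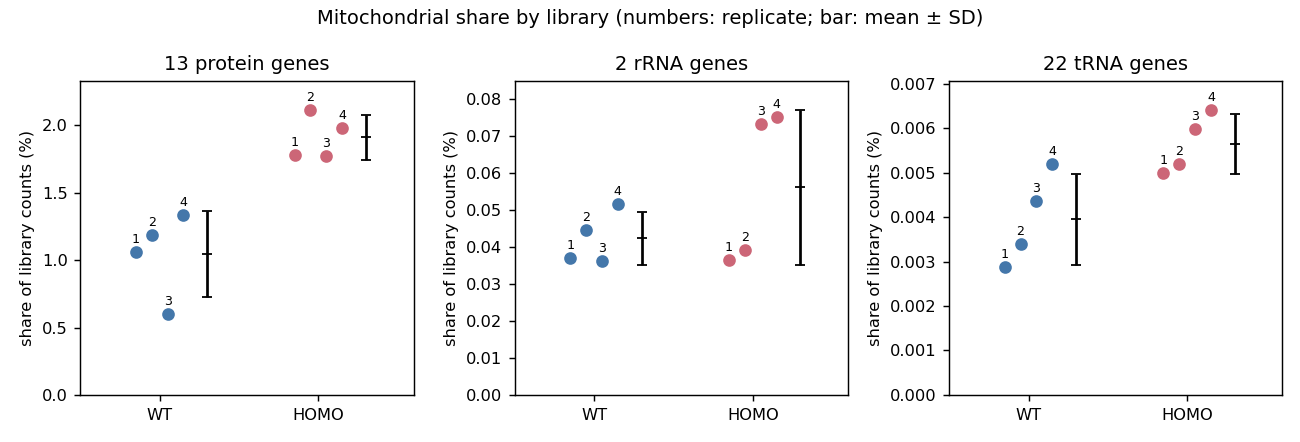
Share of library counts (percent, vertical axis) held by the 13 protein genes, 2 ribosomal RNA genes and 22 transfer RNA genes in 4 WT (blue) and 4 HOMO (red) libraries, each point a library numbered by replicate and the bar the mean ± SD. The protein gene shares of HOMO (mean 1.91%) lie above all WT shares (mean 1.05%), while the ribosomal RNA shares are divided by pairs of HOMO libraries.

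Each transcript was then tested in the fit over all 14150 genes that passed the filter on low counts, where a gene was called if the log2 fold change was beyond 0.6 in either direction and the adjusted p of edgeR's quasi-likelihood test (Benjamini-Hochberg) was under 0.05. Of the 37 mitochondrial entries 25 were tested, which are all 13 protein genes, both ribosomal RNAs and 10 transfer RNAs. Of the 13 protein genes 3 rose in HOMO (mt-Nd2, mt-Cytb and mt-Atp6), none fell and 10 did not pass, against 5.94% of all tested genes called higher and 6.18% called lower. The fitted change was above 0 for 12 of the 13, against 47.3% of all tested genes, and had a median of 0.74 on the log2 scale, against -0.04 over all genes. An unadjusted p under 0.05 was reached by 9 of the 13, against 32.3% of all genes, and HOMO lay above WT in every library for 6 of the 13, against 14.0% of all genes. DESeq2 called 5 of the 13 higher and none lower, against 16.5% of all genes called by it in either direction.

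The calls depended on single libraries. Without WT3 the same 3 protein genes were called, and without WT4 the count rose to 6, with mt-Nd4, mt-Nd4l and mt-Nd6 added. Without any one of WT1, WT2, HOMO1, HOMO2, HOMO3 or HOMO4 the count was 0, with an adjusted p of at most 0.0914 for mt-Nd2, 0.116 for mt-Cytb and 0.102 for mt-Atp6. Calls over all genes fell with these omissions as well, from 1716 to between 507 (without HOMO1) and 1422 (without WT1). The fitted changes with each library left out were 0.91 to 1.31 for mt-Nd2, 0.78 to 1.15 for mt-Cytb and 0.69 to 0.92 for mt-Atp6. With near-identical pairs summed, edgeR called 0 of 16130 genes at all, with 2057 at an unadjusted p under 0.05, and the fitted changes of the 3 genes were 1.06, 1.01 and 0.83.

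Complex I, the NADH dehydrogenase through which electrons enter the chain, has 7 of its core subunits encoded here. mt-Nd2 (chromosome M, 3914 to 4951, sense of the heavy-strand transcript) had 695, 842, 546 and 1196 CPM in WT1 to WT4 and 1646, 2006, 1551 and 1680 CPM in HOMO1 to HOMO4. The HOMO libraries were all above the WT libraries, and the log2 fold change was 1.07 (SE 0.25, edgeR adjusted p = 0.0279). mt-Nd1, the subunit beside the quinone site, had 1592, 1814, 1016 and 2128 CPM in WT and 2125, 2483, 2752 and 2879 CPM in HOMO. WT4 and HOMO1 were level, and the log2 difference of 0.64 (SE 0.24, edgeR adjusted p = 0.109) did not pass.

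mt-Nd4 and mt-Nd5, large proton-pumping subunits of the membrane arm, showed differences of like size that did not pass. mt-Nd4 had 555, 713, 467 and 1164 CPM in WT and 1230, 1537, 1114 and 1310 CPM in HOMO (log2 difference 0.84, SE 0.29, edgeR adjusted p = 0.0844). mt-Nd5 had 1054, 1205, 504 and 1732 CPM in WT and 1969, 2220, 1663 and 1992 CPM in HOMO (0.80, SE 0.33, edgeR adjusted p = 0.135). In both, WT4 reached into the HOMO range and WT3 was the lowest library. mt-Nd6, the one protein gene read from the other strand, had 243, 326, 387 and 445 CPM in WT and 560, 656, 462 and 565 CPM in HOMO. All HOMO libraries were above all WT libraries, and the log2 difference of 0.68 (SE 0.21) had an edgeR adjusted p of 0.0627. Its end overlaps that of mt-Nd5 on the opposite strand by 14 bases, and the library kit does not mark strand, so that reads of mt-Nd6 and reads of the transcript opposite to it cannot be told apart.

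mt-Nd4l and mt-Nd3, the smallest complex I subunits here, were counted little. mt-Nd4l had 1.91, 1.67, 1.15 and 4.68 CPM in WT and 4.10, 3.69, 3.45 and 4.61 CPM in HOMO (log2 difference 0.74, SE 0.43, edgeR adjusted p = 0.266). mt-Nd3 was the only protein gene fitted lower in HOMO (-1.45, SE 0.76, edgeR adjusted p = 0.224), and its 8 values are given with those of its nuclear copy.

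Complex III has a single mitochondrially encoded subunit, cytochrome b. mt-Cytb (chromosome M, 14145 to 15288) had 1585, 1790, 948 and 2178 CPM in WT1 to WT4 and 2867, 3485, 3035 and 3366 CPM in HOMO1 to HOMO4. The groups did not overlap, with a log2 fold change of 0.97 (SE 0.26, edgeR adjusted p = 0.0402).

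Of complex IV, cytochrome c oxidase, the 3 core subunits are encoded here and none passed the test. mt-Co1 (chromosome M, 5328 to 6872), with the most counts of the 37 entries, had 4481, 4841, 2601 and 6108 CPM in WT and 6915, 8026, 6434 and 7232 CPM in HOMO. HOMO was above WT throughout, by 0.67 on the log2 scale (SE 0.27, edgeR adjusted p = 0.129). mt-Co2, which takes up electrons from cytochrome c, had 12.2, 14.9, 11.99 and 16.99 CPM in WT and 17.2, 19.5, 18.7 and 23.6 CPM in HOMO, again without overlap (0.49, SE 0.18, edgeR adjusted p = 0.103). mt-Co3 had 18.4 to 26.0 CPM in WT and 20.95 to 27.3 CPM in HOMO, with overlap and a log2 difference of 0.17 (SE 0.17, edgeR adjusted p = 0.533).

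Complex V, the ATP synthase, has its proton channel subunit Atp6 and the small Atp8 encoded here. mt-Atp6 (chromosome M, 7927 to 8607) had 12.3, 16.1, 10.3 and 16.96 CPM in WT and 22.5, 24.1, 21.5 and 29.5 CPM in HOMO. It rose without overlap, by 0.81 on the log2 scale (SE 0.20, edgeR adjusted p = 0.0355), although its counts were only 179 to 798 per library and shared with a nuclear copy. That copy, Gm10925, was the one of the 7 copies that was called (0.83, edgeR adjusted p = 0.0426). This is 14.3% of the copies, against 12.1% of all genes called in either direction and 5.94% called higher. Gm10925 matches mt-Atp6 over all 678 aligned bases, so the 2 calls need not be separate results. mt-Atp8, which shares 43 bases with mt-Atp6, had 0 to 19 counts per library (log2 difference 0.82, SE 0.73, edgeR adjusted p = 0.474).

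**Figure D2:**
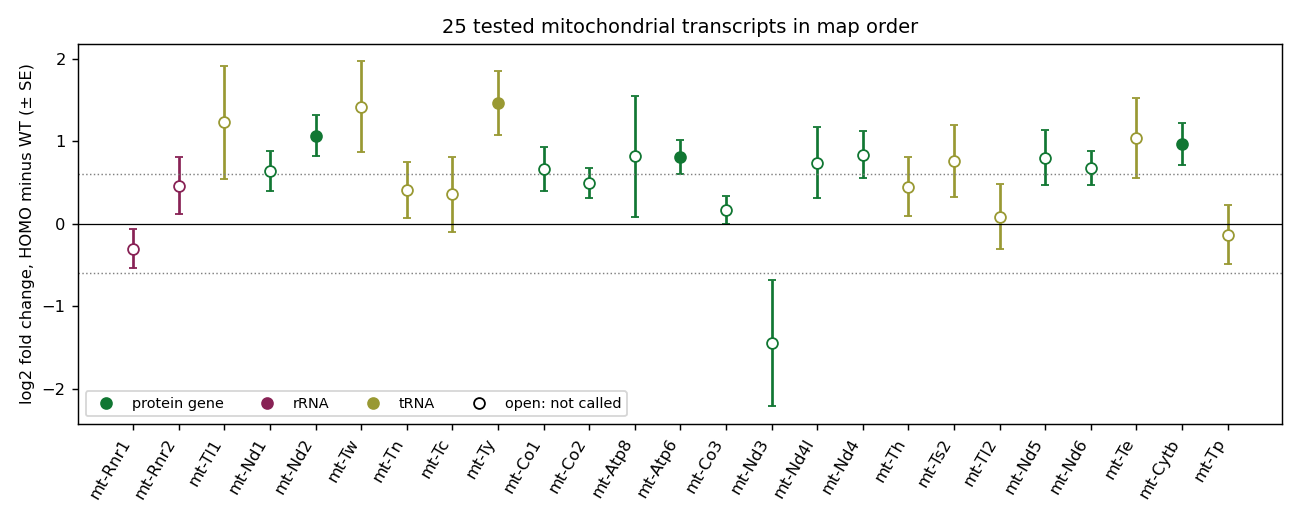
Log2 fold change, HOMO minus WT, with its SE for the 25 tested mitochondrial transcripts in map order (vertical axis, edgeR), coloured by RNA type, with filled points for called genes and dotted lines at the threshold of 0.6. Filled points are mt-Nd2 (1.07), mt-Ty (1.47), mt-Atp6 (0.81) and mt-Cytb (0.97), and mt-Nd3 (-1.45) stands apart below 0.

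Neither ribosomal RNA was called by edgeR or DESeq2, against 12.1% and 16.5% of all genes called in either direction. mt-Rnr1, the small subunit RNA, had 71.6, 103, 136 and 153 CPM in WT and 101, 109, 83.9 and 82.0 CPM in HOMO (log2 difference -0.30, SE 0.23, edgeR adjusted p = 0.405). mt-Rnr2, the large subunit RNA, had 288, 332, 256 and 425 CPM in WT and 256, 271, 622 and 644 CPM in HOMO (0.46, SE 0.34, edgeR adjusted p = 0.386). HOMO3 and HOMO4 were thus above HOMO1 and HOMO2 for mt-Rnr2 and below them for mt-Rnr1. The 0 of 2 called rests on no unadjusted p under 0.05 with either tool, against 32.3% of all genes with edgeR. With 2 genes and such shares, 0 called does not set the ribosomal RNAs apart from other genes.

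Transfer RNAs are short and lack a poly-A tail when mature, and their entries were thinly counted. Of the 22, 12 had at most 26 counts in any library and were not tested, and mt-Tf, mt-Ts1 and mt-Tk had 0 counts in all 8 libraries, which allows up to 3 counts in each. Of the 10 that were tested, 1 rose, none fell and 9 did not pass, against 5.94% of all tested genes called higher and 6.18% called lower. An unadjusted p under 0.05 was reached by 2 (20%, against 32.3% of all genes). DESeq2, which gave an adjusted p for 16, called mt-Ty higher and mt-Tg lower (12.5%, against 16.5% of all genes). mt-Ty, the tyrosine transfer RNA next to the start of mt-Co1 on the opposite strand (chromosome M, 5260 to 5326), had 0.956, 0.300, 0.631 and 0.890 CPM in WT and 1.74, 2.09, 2.13 and 1.75 CPM in HOMO. These are 7 to 69 counts per library without overlap, and the log2 fold change was 1.47 (SE 0.39, edgeR adjusted p = 0.0401). Without any one library other than WT4 it was not called, with a highest adjusted p of 0.118, and without WT4 mt-Te was called beside it.

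The most counted transfer RNAs were mt-Tp (proline), mt-Tc (cysteine), mt-Tl1 and mt-Tn (asparagine). They are shown with the anticodon in capitals because at these lengths a count may come from a longer transcript that spans the gene, which the table does not separate from the mature RNA:
mt-Tp: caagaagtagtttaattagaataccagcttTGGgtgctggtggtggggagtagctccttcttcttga
mt-Tc: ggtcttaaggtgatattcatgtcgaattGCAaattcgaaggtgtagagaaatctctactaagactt
mt-Tl1: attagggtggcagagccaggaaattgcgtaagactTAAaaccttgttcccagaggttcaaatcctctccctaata
mt-Tn: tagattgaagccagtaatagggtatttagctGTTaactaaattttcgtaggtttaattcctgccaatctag
mt-Tp had 9.23, 11.02, 17.7 and 28.5 CPM in WT and 16.3, 19.0, 10.7 and 14.7 CPM in HOMO (log2 difference -0.13, SE 0.36, edgeR adjusted p = 0.835). mt-Tl1, a leucine transfer RNA that directly follows mt-Rnr2, had 4.56, 4.29, 0.631 and 2.90 CPM in WT and 2.59, 3.33, 11.3 and 12.03 CPM in HOMO (1.23, SE 0.68, edgeR adjusted p = 0.246). HOMO3 and HOMO4 were the highest for mt-Tl1, as they were for mt-Rnr2. The tryptophan transfer RNA mt-Tw showed the same order, with 4.31 and 5.11 CPM in HOMO3 and HOMO4 against 0.402 to 1.78 CPM in the other 6 libraries (1.42, SE 0.55, edgeR adjusted p = 0.117).

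The other tested transfer RNAs were not called. mt-Te (glutamate) differed by 1.04 on the log2 scale (SE 0.48, edgeR adjusted p = 0.172), with WT4 at 4.30 CPM inside the HOMO range of 3.11 to 5.39 CPM and the other WT libraries at 0.900 to 1.72 CPM. mt-Tc, mt-Tn, mt-Th (histidine), mt-Ts2 (serine) and mt-Tl2 (leucine) had fitted differences of 0.36, 0.41, 0.45, 0.76 and 0.09.

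The level per kb of gene fell into 2 ranges along the map. It divides by the full gene length, so it takes no account of stretches that also occur elsewhere. Averaged over the 8 libraries mt-Co1 had 3773 CPM per kb, mt-Nd1 2193, mt-Cytb 2104, mt-Nd2 1224, mt-Nd6 878, mt-Nd5 846 and mt-Nd4 734 CPM per kb. The other 6 protein genes, contiguous on the map between mt-Co1 and mt-Nd4, had 28.4 (mt-Co3), 28.1 (mt-Atp6), 24.7 (mt-Co2), 10.6 (mt-Nd4l), 9.78 (mt-Nd3) and 2.24 (mt-Atp8) CPM per kb. Neighbours in this order were often inseparable. In HOMO, for instance, mt-Nd1 had 2675 ± 348 and mt-Cytb 2787 ± 251 CPM per kb, while in WT mt-Nd1 had 1711 ± 490 and mt-Cytb 1421 ± 450 CPM per kb (SD, n = 4 each). mt-Nd6 and mt-Nd5 had 1081 ± 153 and 1075 ± 125 CPM per kb in HOMO. The drop between the ranges was far outside the spread: mt-Co1 had 153 times the level per kb of mt-Co2 and 133 times that of mt-Co3, and mt-Nd4 had 69.0 times that of mt-Nd4l, with which it shares a bicistronic messenger.

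The low range coincided with the stretch copied on chromosome 1. Of the 100-base windows of mt-Co2, mt-Atp6, mt-Co3, mt-Nd3 and mt-Nd4l, 99.5%, 99.5%, 99.9%, 97.6% and 98.5% also occurred in another annotated transcript. The figure was 60.8% for mt-Nd4, 30.8% for mt-Co1 and 3.19% for mt-Nd2, and no window of mt-Nd1, mt-Nd5, mt-Nd6, mt-Cytb or the ribosomal RNAs did so. The windows of mt-Nd2 matched Gm13339, which is not among the 7 copies on chromosome 1. Besides their copies there, mt-Co2 also matched Gm13341 and mt-Co1 also matched Gm13340. The counts of these further matches were not read here. For mt-Atp8 no other annotated transcript matched, but its place on the map lies inside the copied stretch, between mt-Co2 and mt-Atp6. How reads that align to both places were treated in counting is not given in the sources used here. The part of that treatment in the low range, and in the levels of mt-Co1 and mt-Nd4, was not tested.

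**Figure D3:**
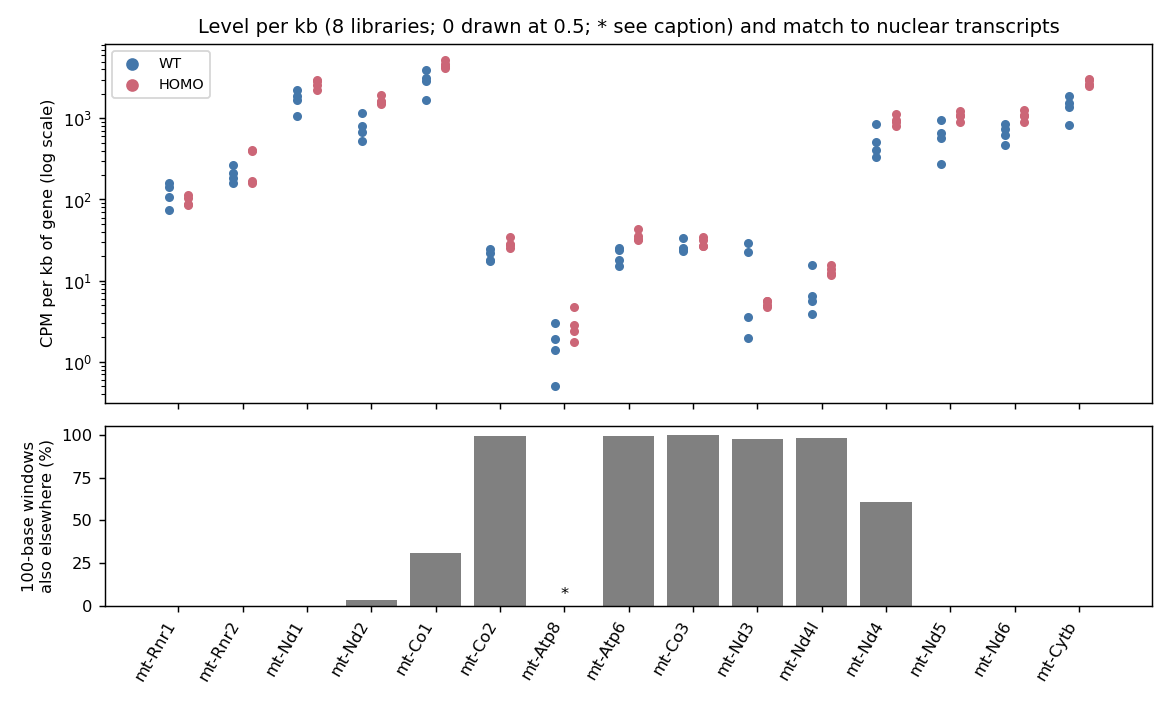
Upper panel: CPM per kb of gene (log axis) of the 13 protein genes and 2 ribosomal RNAs in map order, each point a library (WT blue, HOMO red, a value of 0 drawn at 0.5). Lower panel: percent of 100-base windows of the gene found in another annotated transcript, where mt-Atp8 (asterisk) has no annotated match although it lies inside the copied stretch. The 6 genes from mt-Co2 to mt-Nd4l are at 2.24 to 28.4 CPM per kb on average while mt-Co1 and mt-Nd4 on either side are at 3773 and 734 CPM per kb.

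Of the 7 genes with an annotated copy on chromosome 1, mt-Co2, mt-Atp6 and mt-Co3 shared their few counts about evenly with it, with overlapping ranges in the genotypes. The mitochondrial entry held 47.0 to 51.6% of the sum for mt-Co2 with Gm28661, 45.5 to 50.6% for mt-Atp6 with Gm10925 and 43.3 to 53.8% for mt-Co3 with Gm28437. For mt-Co1 and mt-Nd4, whose copies are partial, it held above 99% in all 8 libraries.

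mt-Nd3 was divided otherwise, and by library rather than by genotype. Over WT1 to WT4 its counts were 12, 29, 177 and 203, and over HOMO1 to HOMO4 they were 39, 55, 38 and 39. Its copy Gm28438 had 190, 271, 41 and 40 counts in WT and 221, 383, 296 and 340 counts in HOMO. The mitochondrial entry thus held 81.2% and 83.5% of the sum in WT3 and WT4, but 5.94% and 9.67% in WT1 and WT2 and 10.3 to 15% in HOMO. The only base by which the entries differ over the aligned length is T3C, shown above, and the base that each library carries was not read here, since reads were not used.

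The transfer RNAs on either side of mt-Nd3 were also counted in WT3 and WT4. mt-Tg, the glycine transfer RNA that ends where mt-Nd3 begins, had 14 counts in WT3, 26 in WT4 and 0 in each of the other 6 libraries. mt-Tr, the arginine transfer RNA that follows mt-Nd3, had 10 counts in WT3, 4 in WT4 and 0 or 1 elsewhere. Their sequences are given, anticodon in capitals, since they flank the base in question on the map:
mt-Tg: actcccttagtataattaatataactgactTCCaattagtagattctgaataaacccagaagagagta
mt-Tr: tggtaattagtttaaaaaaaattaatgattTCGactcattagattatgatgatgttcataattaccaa
The fitted change of mt-Nd3 followed these libraries. It was -1.45 as deposited, 0.40 when the counts of mt-Nd3 and Gm28438 were summed (edgeR adjusted p = 0.223), and 0.90 without WT3 and WT4 (edgeR adjusted p = 0.0820). Both alternatives were chosen after seeing the data. WT3 and WT4 are also the libraries highest in macrophage markers, and the part of those in the mt-Nd3 values was not tested. mt-Nd4l with Gm10222 showed a wider division than the first 3 pairs, with 27.7 to 53.3% on the mitochondrial entry in 7 libraries and 74.1% in WT3, which had only 20 and 7 counts on the pair.

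**Figure D4:**
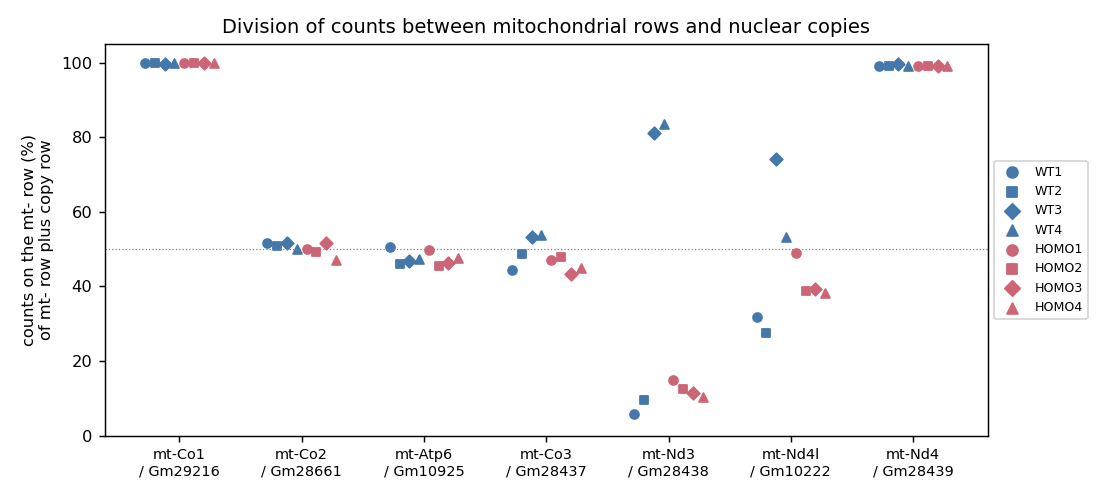
Percent of the counts of each pair that fell on the mitochondrial entry (vertical axis) for the 7 genes with an annotated copy on chromosome 1, by library (WT blue, HOMO red, symbol by replicate number). The dotted line marks an even division, near which mt-Co2, mt-Atp6 and mt-Co3 lie in all libraries, while mt-Nd3 is at 81.2% and 83.5% in WT3 and WT4 and at 5.94 to 15% in the other 6.

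The mix of transcripts within the protein-coding counts was set out as shares per library. The 7 well-counted genes held 99.2 to 99.6% of these counts in every library. The others are the genes of the low range per kb, so these shares describe the counts and need not be those of the RNA present. mt-Cytb took 15.5%, 15.4%, 14.5% and 14.5% in WT1 to WT4 and 16.5%, 17.01%, 17.8% and 17.6% in HOMO1 to HOMO4. mt-Nd2 took 6.78 to 8.38% in WT and 8.79 to 9.79% in HOMO. mt-Co1 went the other way, with 39.9 to 43.7% in WT and 37.7 to 39.8% in HOMO. Each of these 3 did not overlap between the groups (two-sided exact permutation p = 0.0286, and 0.0667 after Benjamini-Hochberg adjustment over the 7 genes), and the other 4 overlapped. These shares sum to a whole, so they are not separate measurements, and they were computed after the fold changes were known.

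Of 4 ratios that need no scaling between libraries, none passed the test between genotypes. The log2 ratio of mt-Nd6 to the other 12 protein genes, the one annotated on the opposite strand, was -5.37, -5.11, -3.99 and -5.03 in WT1 to WT4 and -4.91, -4.92, -5.17 and -5.04 in HOMO1 to HOMO4. WT3 was far above the rest, and the difference of -0.13 (exact permutation p = 0.886) was 0.16 without WT3. The log2 ratio of ribosomal to protein-coding RNA was -4.83, -4.74, -4.06 and -4.70 in WT and -5.61, -5.75, -4.60 and -4.72 in HOMO, so that HOMO1 and HOMO2 were low and HOMO3 and HOMO4 were inside the WT range (difference -0.59, exact permutation p = 0.257). The log2 ratio of transfer to protein-coding RNA differed by -0.38 (exact permutation p = 0.371), with WT3 highest at -7.11. The log2 ratio of the promoter-distal mt-Nd5 and mt-Cytb to the promoter-proximal mt-Nd1 and mt-Nd2 differed by 0.14 (exact permutation p = 0.229). In this ratio, too, WT3 lay apart, at -0.11 against 0.17 to 0.23 in the other WT libraries and 0.13 to 0.36 in HOMO.

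**Figure D5:**
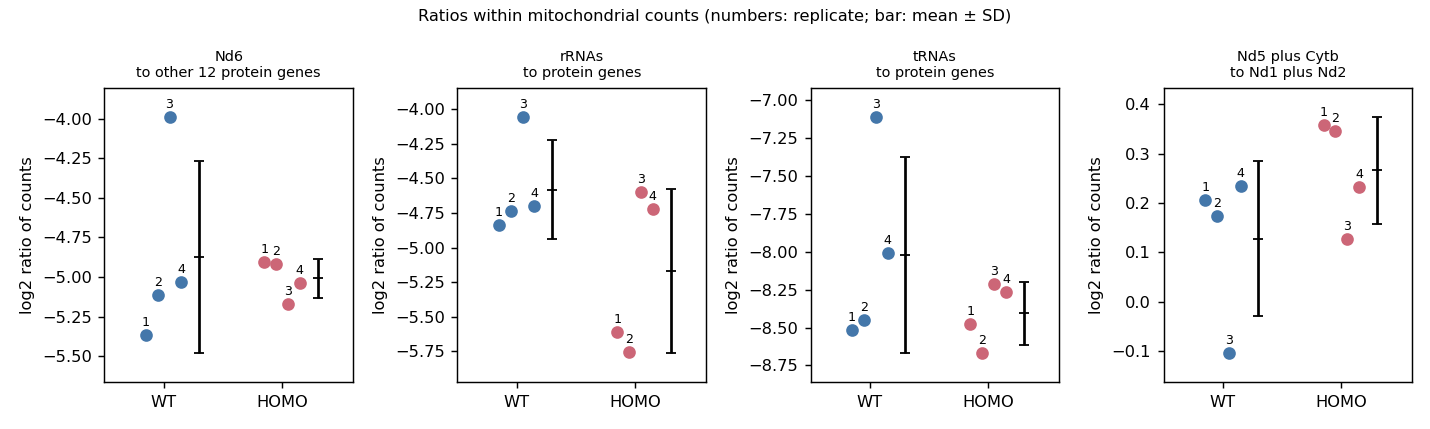
Log2 ratios of summed counts (vertical axes, each on its own scale) within each library for 4 WT (blue) and 4 HOMO (red) libraries, numbered by replicate, with the mean ± SD. WT3 is the outermost WT library in all 4 panels, for instance at -3.99 for mt-Nd6, and the ribosomal ratio splits HOMO into -5.61 and -5.75 against -4.60 and -4.72.

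The nuclear genes that replicate and transcribe mitochondrial DNA, process and translate its RNA, or regulate mitochondrial biogenesis were rarely called. Of 74 symbols listed, 8 of them the regulators given further below, 71 had an entry and were tested by edgeR. None was called higher and 1 lower, together 1.41% against 12.1% of all genes. An unadjusted p under 0.05 was reached by 7 on the higher side and 6 on the lower side (18.3%, against 32.3% of all genes), and DESeq2 called 4 higher and 2 lower (8.45%, against 16.5% of all genes). The median log2 difference was -0.02. Tufm, the elongation factor that brings transfer RNAs to the mitochondrial ribosome, had 77.8, 73.7, 99.7 and 57.1 CPM in WT and 36.6, 39.0, 46.4 and 52.9 CPM in HOMO, and fell by 0.82 on the log2 scale (SE 0.20, edgeR adjusted p = 0.0313). Without any one of WT1, WT2, HOMO1, HOMO2 or HOMO3 Tufm was not called.

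None of the named transcription factors passed the test. The polymerase Polrmt had 42.9 ± 4.57 CPM in WT and 43.0 ± 4.73 CPM in HOMO (SD, n = 4), and the packaging and initiation factor Tfam 38.9 ± 6.23 and 41.9 ± 4.39 CPM. Fitted log2 differences were 0.11 for Tfam, -0.02 for the promoter-melting factor Tfb2m, -0.14 for the elongation factor Tefm and -0.13 for the termination factor Mterf1a, with edgeR adjusted p of 0.664 to 0.948. Its paralog Mterf1b, at 0.616 CPM in WT and 1.24 CPM in HOMO, differed by 0.98 (edgeR adjusted p = 0.132), and the 2 paralogs may share reads. The replication genes Polg, Twnk and Ssbp1 had differences of 0.25, -0.07 and -0.08.

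None of the named RNA processing and stability factors passed either. Trmt10c, a subunit of the enzyme that cuts the 5′ end of transfer RNAs, and Elac2, which cuts the 3′ end, differed by -0.08 and -0.10. Lrpprc, which protects mitochondrial messengers and their poly-A tails, had 72.2 ± 13.3 CPM in WT and 83.5 ± 1.72 CPM in HOMO (log2 difference 0.21, SE 0.15, edgeR adjusted p = 0.363), and its partner Slirp differed by -0.56 at 2.62 and 1.78 CPM. Fastk, which is needed for mt-Nd6 RNA, and Tbrg4 differed by -0.02 and -0.12. Grsf1, a protein of the mitochondrial RNA granules, was lower in each HOMO library (83.1 ± 5.29 against 64.3 ± 4.64 CPM, log2 difference -0.37, edgeR adjusted p = 0.0634) but did not pass.

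Among the 8 regulators of mitochondrial biogenesis, which are part of the 71 genes above, none was called by edgeR, against 12.1% of all genes. An unadjusted p under 0.05 was reached by 4 (50%, against 32.3% of all genes). DESeq2 called 2 higher (25%, against 16.5% of all genes called by it in either direction). The coactivator Ppargc1a had 0.394, 0.472, 1.43 and 0.581 CPM in WT and 3.88, 4.21, 0.710 and 1.80 CPM in HOMO (log2 difference 1.89, SE 0.64, edgeR adjusted p = 0.0822). WT3 and HOMO3 overlapped. Ppargc1b had 0.287 to 1.24 CPM in WT and 1.63 to 2.58 CPM in HOMO (1.49, SE 0.43, edgeR adjusted p = 0.0533). Their partner receptor Esrra had 45.7 to 63.7 CPM in WT and 34.3 to 43.0 CPM in HOMO (-0.50, SE 0.14, edgeR adjusted p = 0.0519), and the factors Nrf1 and Gabpa differed by 0.19 and 0.22.

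The genes of the mitochondrial ribosomal proteins, which assemble on mt-Rnr1 and mt-Rnr2, were called at a share below that of all genes. The calls were all downward. Of 77 tested, 7 fell and none rose by edgeR. This is 9.09%, against 12.1% of all genes called in either direction and 6.18% called lower. An unadjusted p under 0.05 was reached by 25 (32.5%, against 32.3% of all genes), 24 of them on the lower side. DESeq2 called 9 lower and none higher (11.7%, against 16.5% of all genes called by it in either direction). A fitted change below 0 was found for 67 of the 77 (87.0%, against 52.7% of all genes), with a median of -0.35. Of these 7, the 6 with the largest falls were Mrpl20 (-1.07, from 31.1 ± 4.13 to 14.8 ± 4.15 CPM), Mrpl36 (-0.77), Mrps23 (-0.72), Mrpl51 (-0.66), Mrps15 (-0.66) and Mrps25 (-0.62), with edgeR adjusted p of 0.0094 to 0.043. WT lay above HOMO without overlap in each of the 6, against 13.4% of all tested genes. They were picked as called in these same libraries, so this is not separate support. The count of 7 was 1 without HOMO1 and without HOMO2, 3 without WT3 and without HOMO4, 4 without WT2 and without HOMO3, and 11 without WT4, and it was 3 when library totals alone set the scale.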

How the data were processed

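Poly-A RNA of primary lung fibroblasts was made into 8 libraries with the NEBNext Ultra kit, which does not mark strand. Per the labels and the study's methods, the authors trimmed reads with fastp, aligned them to mm10 with STAR and counted them per gene with featureCounts. They deposited raw counts, not normalized, in a table of the whole series. Strand and multi-mapping settings are not given in the sources used here.

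The deposited counts were tested with edgeR 4.0.16 (TMM scaling, filterByExpr, quasi-likelihood test, genotype as the only term, Benjamini-Hochberg adjustment over all 14150 genes tested), with DESeq2 1.42.0 as an alternative. CPM use TMM-scaled totals. Errors are SD for levels and SE for log2 fold changes. Shares and ratios were compared by two-sided exact permutation of the 8 libraries (scipy 1.17.1). The fit was tested on simulated data with all 8 libraries drawn independently. That simulation held no near-identical pairs, so it cannot show how the fit performs with them. Gene positions, lengths and sequences came from GENCODE M21 on GRCm38, matched by symbol. Windows of 100 bases of each gene were searched for in all other annotated transcripts.

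All 13 protein genes, both ribosomal RNAs, the tested transfer RNAs, the copies on chromosome 1, a set of 21 machinery genes and every called machinery gene were named, and up to 6 called mitoribosomal genes. The members, lists and comparisons were chosen with earlier results of these data known. Other scalings, filters, a replicate block, near-identical pairs merged and each library left out were also tried.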

Additional observations from a re-analysis of the deposited data

Results flagged for a closer look

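Of 80 sets of 4 libraries screened for a single outlying library, 1 passed Dixon's limit, which chance passes in about 1 of 20 such sets. It was Gm10222, the copy of mt-Nd4l on chromosome 1, whose level in WT3 was -0.95 on the log2 CPM scale against 2.06 to 2.16 in the other WT libraries, a gap of 0.97 of the range. It rests on 7 counts in WT3 against 73 to 106 in the others. WT3 is also the library with the lowest mitochondrial share, 0.643%, and the highest mouse Igfbp5, 409 CPM, and the part of either in this value was not tested.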

How the results depend on the processing

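The limits are few libraries, near-identical pairs and low counts. Of 472 values of single mitochondrial transcripts under alternatives, 410 kept their direction and their side of the threshold, 36 lost it, 16 gained it and 10 turned. The 3 protein genes called higher became 5 with DESeq2 and with library totals only, 1 with no filter on low counts, 0 with a replicate block and with near-identical pairs summed, 8 without WT3 and WT4, and 0 to 6 with each library left out in turn. The single called transfer RNA became 0 with no filter, with the block and with pairs summed, 4 without WT3 and WT4, and 0 to 2 with each library left out. The 1 called machinery gene became 6 with DESeq2, 2 with a CPM above 1 in at least 4 libraries, 0 with the block and with pairs summed, and 0 to 3 with each library left out. The 7 mitoribosomal genes called lower became 4 with upper-quartile scaling and with no filter, 3 with library totals only, 2 with the block, 0 with pairs summed, and 1 to 11 with each library left out. Same-numbered libraries had correlations of deviations from the group means of -0.12 to 0.01, and differently numbered ones -0.17 to 0.17. These values cannot settle whether the numbers pair the samples, since the deviations within a group cancel out by construction. The labels do not give a pairing, so whether the block fits the design is not known.

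The difference in mitochondrial share kept its direction in all settings run. For all 37 entries it was 0.906 points with pairs averaged, 0.806 without WT3 and WT4, 0.881 within replicate numbers (replicate block, exact permutation p = 0.125) and 0.731 to 0.981 with each library left out. For the protein genes these were 0.891, 0.789, 0.865 and 0.717 to 0.962. None of these designs can reach an exact permutation p under 0.05. The mt-Nd6 ratio turned to 0.16 without WT3 (-0.30 to 0.16 over libraries left out) and 0.23 without WT3 and WT4, and the transfer RNA ratio to 0.078 without WT3 and WT4.

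Log2 differences that changed sign were all of genes not called, and apart from the effect of the omitted libraries the cause was not tested. Without WT3 and WT4, mt-Rnr1 was 0.11, mt-Tp 0.58, mt-Tl2 -0.088 and mt-Nd3 0.90. With all libraries kept and the counts of its copy added, mt-Nd3 was 0.40. With library totals only, which moved the median of all genes from -0.04 to 0.05, mt-Tp was 0.0017, Tfb2m 0.068, Twnk 0.0071, Ssbp1 0.0052, Trmt10c 0.0065 and Fastk 0.080. Upper-quartile scaling gave 0.0070 for Tfb2m and 0.0013 for Fastk, DESeq2 -0.0017 and its scaling in edgeR -0.0042 for Polrmt, and the block 0.0064 for Mterf1a. With pairs summed Tfb2m was 0.029, Twnk 0.0092, Elac2 0.0072 and Tbrg4 0.092. With each library left out in turn the ranges were -0.33 to 0.26 for mt-Tp, -0.14 to 0.29 for mt-Tl2, -0.059 to 0.075 for Polrmt, -0.12 to 0.063 for Tfb2m, -0.25 to 0.027 for Tefm, -0.29 to 0.35 for Mterf1a, -0.17 to 0.024 for Twnk, -0.21 to 0.024 for Elac2, -0.091 to 0.039 for Fastk and -0.29 to 0.17 for Tbrg4. The settings without WT3 and WT4 and with copies added were chosen after seeing the data.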
